A study of Mus musculus with 10 samples.

Results

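The immunoglobulin genes of the mouse, together with Jchain and Mzb1, were examined in poly(A) RNA-seq of whole livers from 10 male mice. Genes were chosen by symbol: the variable (V), diversity (D), joining (J) and constant (C) segments of the heavy chain and of the kappa and lambda light chains, plus Jchain and Mzb1, if the counts summed over all livers reached 10. The rule gave 166 genes of the 22449 that reached 10 counts and of 55421 identifiers in all. The table named 397 genes that fit by symbol, and 236 of them had at least 1 count. The H3.3 KO group held 4 H3f3afl/fl_H3f3bfl/fl C57BL/6 mice that received AAV8 Tbg-Cre. WT Cre controls were 3 wild-type mice given AAV8 Tbg-Cre, and MCS controls were 3 H3f3afl/fl_H3f3bfl/fl mice given AAV8 Tbg-MCS, which lacks Cre. Every group received an AAV8 vector, at an age of 6 months, and livers were collected 3 weeks after it. The Tbg promoter is active in hepatocytes, so the deletion was directed to hepatocytes and not to the blood cells that express immunoglobulins. The genotype field of the floxed mice reads HIRA, whereas their titles give H3f3a and H3f3b, which the grouping follows. Labels do not say whether mice shared a litter or a day of processing.

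Antibodies are built from 2 heavy and 2 light chains, and each B cell joins 1 V, 1 D and 1 J segment for the heavy chain and 1 V and 1 J segment for the light chain. Resting B cells carry IgM and IgD. After activation a B cell can switch to IgG, IgA or IgE by exchanging the heavy constant gene, and plasma cells then transcribe immunoglobulin genes at very high levels. Jchain encodes the joining chain that links IgM and IgA units, and Mzb1 encodes an endoplasmic reticulum protein that aids antibody assembly and secretion. Hepatocytes do not rearrange these genes, and lymphocytes are their usual source in liver and in its blood, but constant genes can also be transcribed without rearrangement and the source was not tested here. In bulk tissue, more cells of a type and more RNA per cell cannot be told apart. In GENCODE M21 (mm10) the heavy chain members lie on chromosome 12 (82 genes, 113254830 to 116000461). The kappa members lie on chromosome 6 (76 genes, 67555497 to 70726966) and the lambda members on chromosome 16 (6 genes, 19061618 to 19260859). Jchain lies on chromosome 5.

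The V genes that took most counts are shown first, since the identity between V genes limits how far their counts can be told apart. Among the 144 V genes that reached 10 counts, the V exon of each was aligned with the V exons of all other annotated V genes of its locus, and the identity to the nearest had a median of 95.4%. It was at least 95% for 79 of them and 100% for the pair Ighv1-62-2 and Ighv1-71. How the authors treated reads with several matches is not given in the sources used here, so each V gene count is uncertain where a close copy exists. The last bases of 5 V exons are printed 5′ to 3′ from GENCODE M21, with capitals at bases that differ from the nearest other V gene or have no partner in it. Ighv8-8 (chr12:115294062-115294361, minus strand, nearest Ighv8-5 at 96.2%), Ighv1-80 (chr12:115912344-115912643, minus strand) and Ighv1-82 (chr12:115952538-115952837, minus strand) were the heavy V genes with the highest mean CPM. The last 2 are each other's nearest gene at 96.1%, with 12 unmatched bases. Ighv1-56 (chr12:115242802-115243101, minus strand, nearest Ighv1-62-1 at 94.4%) led the heavy V genes in all controls and in KO 1, and Igkv10-96 (chr6:68631963-68632260, minus strand, nearest Igkv10-94 at 94.6%) had the highest mean CPM of the kappa V genes.
Ighv8-8: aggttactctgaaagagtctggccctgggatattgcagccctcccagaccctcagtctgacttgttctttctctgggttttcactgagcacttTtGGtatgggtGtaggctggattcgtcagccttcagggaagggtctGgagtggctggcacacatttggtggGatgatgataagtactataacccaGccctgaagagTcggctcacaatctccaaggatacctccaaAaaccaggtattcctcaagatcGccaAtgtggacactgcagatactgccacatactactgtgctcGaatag
Ighv1-80: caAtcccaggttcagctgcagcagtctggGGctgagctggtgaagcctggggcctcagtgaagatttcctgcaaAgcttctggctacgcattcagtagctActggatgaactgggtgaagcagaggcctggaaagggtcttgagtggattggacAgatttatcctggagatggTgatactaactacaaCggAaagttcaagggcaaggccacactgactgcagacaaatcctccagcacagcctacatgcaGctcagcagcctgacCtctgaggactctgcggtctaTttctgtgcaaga
Ighv1-82: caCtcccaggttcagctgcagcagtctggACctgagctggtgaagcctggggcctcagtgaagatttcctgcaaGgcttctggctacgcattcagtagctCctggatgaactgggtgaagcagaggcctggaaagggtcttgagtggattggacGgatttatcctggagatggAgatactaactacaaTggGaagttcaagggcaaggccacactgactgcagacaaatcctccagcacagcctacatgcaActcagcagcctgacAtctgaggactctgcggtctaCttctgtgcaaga
Ighv1-56: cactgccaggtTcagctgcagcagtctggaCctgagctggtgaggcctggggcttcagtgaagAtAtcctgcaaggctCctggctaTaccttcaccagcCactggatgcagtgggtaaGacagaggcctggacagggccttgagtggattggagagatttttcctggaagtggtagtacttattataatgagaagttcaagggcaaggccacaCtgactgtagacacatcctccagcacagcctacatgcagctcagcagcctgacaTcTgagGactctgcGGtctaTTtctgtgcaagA
Igkv10-96: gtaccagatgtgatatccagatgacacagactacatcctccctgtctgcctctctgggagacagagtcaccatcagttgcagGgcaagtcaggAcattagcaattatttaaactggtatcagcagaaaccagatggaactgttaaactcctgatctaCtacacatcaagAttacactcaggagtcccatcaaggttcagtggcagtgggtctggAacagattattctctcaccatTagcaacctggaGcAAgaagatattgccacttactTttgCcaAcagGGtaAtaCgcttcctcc

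Total counts per liver ran from 14998426 in KO 1 to 26096141 in MCS control 1. H3f3a, a deleted gene, stood at 59.9 to 63.7 CPM (counts scaled to library size after TMM) in controls and at 16.0 to 19.0 CPM in all 4 KO livers, and H3f3b at 136 to 204 and at 39.8 to 56.7 CPM. The tissue label was borne out by 10 hepatocyte genes, whose summed level was 122210 to 167322 CPM in controls and 89362 to 106347 CPM in KO. KO 1 stood apart from the other KO livers in nearly all that follows, although its loss of H3f3a and H3f3b was as deep. The main tests that include it are therefore given with and without it. KO 1 was singled out after its values had been seen, so a smaller p without it is no added support. The leukocyte gene Ptprc, which encodes CD45, stood at 5.09 to 10.7 CPM in controls, at 15 CPM in KO 1 and at 35.3, 28.8 and 37.7 CPM in KO 2, 3 and 4. All values for 1 kind of control rest on a match of control columns to libraries by number.

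Immunoglobulin transcripts were abundant in 3 of the 4 KO livers. The 166 genes summed to 74.7, 71.6 and 42.5 CPM in WT Cre controls 1 to 3 and to 48.1, 47.7 and 44.1 CPM in MCS controls 1 to 3. In KO 1 to 4 they summed to 148, 1649, 1271 and 888 CPM. KO 2, 3 and 4 thus lay far above all controls, at 41723, 30169 and 23215 counts against at most 1793, and KO 1 lay above them by less, at 2272 counts. The mean over KO livers was 18.0 times that of controls, and 23.2 times without KO 1. Most of the total in controls and in KO 1 was Ighm, the constant gene of IgM. Without Ighm, a setting added after the data had been seen, the sum was 11.3 to 20.3 CPM in controls and 13.6 CPM in KO 1, inside the control range, and 1582, 1207 and 833 CPM in KO 2, 3 and 4. Since these are sums over genes chosen by the rule, no test was run on them.

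**Figure D1:**
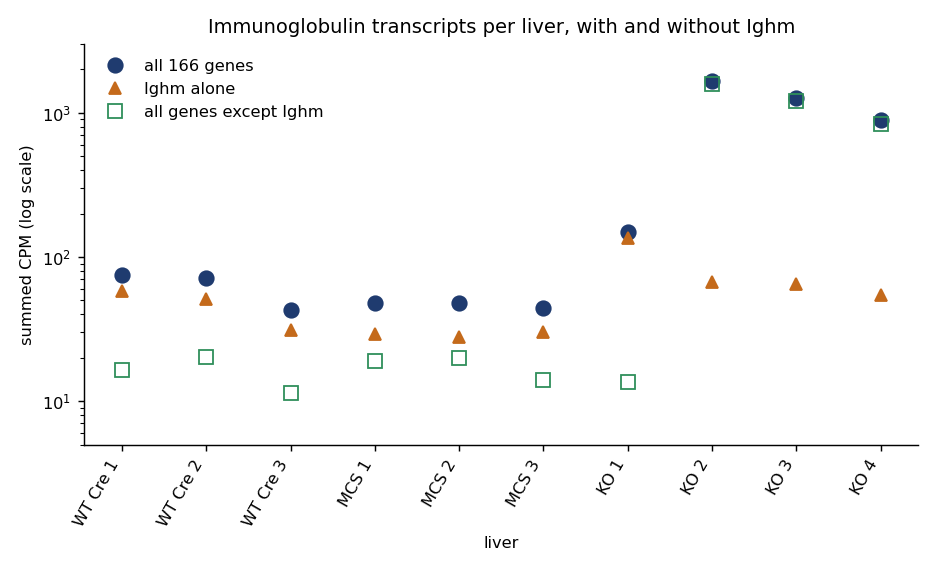
Summed CPM of the 166 immunoglobulin genes, of Ighm alone and of all genes except Ighm in each liver, on a log axis, with 1 symbol per liver and quantity. Without Ighm, KO 1 sits at 13.6 CPM among the controls, and KO 2, 3 and 4 sit at 833 CPM or more.

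Differential expression was tested with edgeR over all 22449 genes. Of the 166 genes, 126 were higher in KO at an adjusted p under 0.05 and a log2 fold change (log2FC) over 1, 1 was lower and 39 did not pass. Of all genes tested, 12.9% were higher and 5.79% lower by the same thresholds. A gene that reached 10 counts only through the KO livers had to differ, and 128 of the 166 had at most 3 counts in every control, so this count is no measure of how many immunoglobulin genes responded. Only 32 reached 10 counts in the 6 controls alone, a limit added after the data had been seen. Of those, 27 were higher, 1 was lower (Ighv1-56) and 4 did not pass (Ighd, Iglv2, Igkv1-122 and Igkv2-137), where 11.3% of all genes with as many control counts were higher. Without KO 1 the number higher was 138, where 14% of all genes tested were higher.

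KO 1 did not share in this. All 4 KO livers lay above all 6 controls for 10 of the 166 genes, where 12.5% of all genes tested did so. KO 1 alone lay above all controls for 15, where 24.7% of all genes did. In KO 2, 3 and 4 alike, 112 of the 166 lay above all controls, where 20.1% of all genes did. KO 1 had 0 counts in 112 of the 166 genes and at least 10 counts in 6. Among the 126 genes called higher, KO 1 lay within or below the control range for 113. Most of the 166 genes reached 10 counts only through the KO livers, and KO 1 had the fewest total counts. The numbers of this paragraph were therefore partly set by the rule and by depth.

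Among heavy constant genes, which define the isotype, those of IgG rose most. Ighg2c, the constant gene of IgG2c, had 7, 5 and 0 counts in WT Cre controls 1 to 3, 7, 12 and 8 in MCS controls 1 to 3 and 5 in KO 1, but 9479, 5164 and 5335 in KO 2, 3 and 4. The last 3 were thus far above every other liver, and KO 1 was inside the control range. This gave a log2FC of 9.41 (SE 1.45, adjusted p by edgeR of 0.00133), or 9.83 once KO 1 was left out (adjusted p of 6.34e-07). Ighg2b, the constant gene of IgG2b, had 13, 9, 6, 28, 55 and 32 counts in the controls in the same order, 10 in KO 1, and 4407, 2771 and 2184 in KO 2, 3 and 4. Here too KO 1 was inside the control range and the other KO livers were above it. In the fit the log2FC was 6.45 (SE 1.17, adjusted p by edgeR of 0.00305), or 6.87 once KO 1 was left out (adjusted p of 4.63e-05).

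Ighg1, the constant gene of IgG1, had 0 counts in all WT Cre controls, 3, 4 and 6 in the MCS controls, 2 in KO 1, and 1955, 2220 and 640 in KO 2, 3 and 4. Ighg3, the constant gene of IgG3, had 1 to 7 counts in the controls, 0 in KO 1, and 352, 210 and 262 in KO 2, 3 and 4. Both genes were nearly silent outside these 3 livers. Both passed with edgeR (adjusted p of 0.00182 for Ighg1 and 0.00192 for Ighg3, and without KO 1 of 1.85e-05 and 4.35e-08), but their fitted fold changes depend on the prior count and are not given. Ighe, the constant gene of IgE, had 6 counts in all, with 0 in every control and in KO 1 and 1, 2 and 3 in KO 2, 3 and 4, and did not reach the minimum.

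IgA followed at a lower level. Igha, its constant gene, stood at 1.58, 1.13 and 0.754 CPM in the WT Cre controls, at 1.26, 1.65 and 0.391 CPM in the MCS controls, at 0.782 CPM in KO 1 and at 16.9, 35.0 and 7.80 CPM in KO 2, 3 and 4. KO 2, 3 and 4 were above all controls, and KO 1 was between them. The fitted log2FC was 3.73 (SE 0.793, adjusted p by edgeR of 0.00597), or 4.11 once KO 1 was left out (adjusted p of 0.000184). With the replicate number as a block it did not pass (3.57, adjusted p of 0.0667).

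Ighm and Ighd, the constant genes of unswitched B cells, are given next. Ighm stood at 58.3, 51.3 and 31.2 CPM in the WT Cre controls, at 29.3, 27.8 and 30.1 CPM in the MCS controls, and at 134, 67.3, 64.5 and 54.7 CPM in KO 1 to 4. KO 1 was the highest of all livers, KO 2 and 3 were above all controls, and KO 4 was below WT Cre control 1. Its log2FC was 1.08 (SE 0.303, adjusted p by edgeR of 0.0188). Without KO 1 it was 0.71 (adjusted p of 0.0495), under the fold threshold. Against the WT Cre controls alone Ighm did not pass (log2FC of 0.77, adjusted p by edgeR of 0.0973), and against the MCS controls it did (1.46, adjusted p of 0.00751). Ighd, the constant gene of IgD, ran from 0.224 to 2.43 CPM in controls (median 1.93) and stood at 2.15, 2.21, 1.56 and 1.49 CPM in KO 1 to 4. All KO livers were inside the control range, and the log2FC of 0.21 (SE 0.437, adjusted p by edgeR of 0.744) did not pass, nor did that of 0.14 without KO 1 (adjusted p of 0.852).

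**Figure D2:**
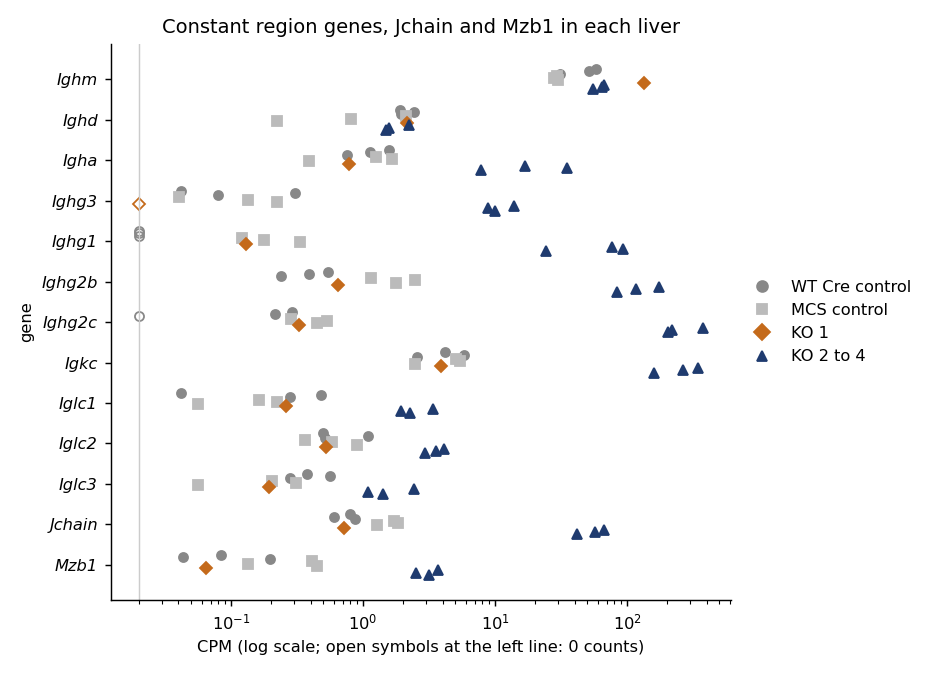
CPM of the 11 constant region genes, Jchain and Mzb1 in each liver on a log axis, with 1 symbol per liver and open symbols for 0 counts. KO 2, 3 and 4 lie to the right of all other livers for every gene but Ighm and Ighd, and KO 1 lies among the controls for every gene but Ighm, where it is highest at 134 CPM, and Ighg3, where it has 0 counts.

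The isotype shares of each liver were taken as percentages of all heavy constant counts. IgM took 93.0%, 92.0% and 91.2% in the WT Cre controls, 85.5%, 82.8% and 89.8% in the MCS controls and 97.1% (95% Wilson interval 96.3 to 97.7) in KO 1. It took 9.26%, 12.0% and 14.2% in KO 2, 3 and 4. IgG took 1.40%, 1.63% and 0.928% in the WT Cre controls, 4.64%, 9.85% and 8.35% in the MCS controls and 0.80% (0.50 to 1.28) in KO 1. In KO 2, 3 and 4 it took 88.1% (87.6 to 88.6), 81.2% (80.5 to 81.9) and 83.4% (82.7 to 84.1). By share of heavy constant counts, IgM was thus first in every control and in KO 1, and IgG in KO 2, 3 and 4. Heavy V counts per heavy constant count were 0.0302 to 0.0692 in controls and 0.00894 in KO 1. In KO 2, 3 and 4 they were 0.272 to 0.311. How much of the Ighm of controls and KO 1 came from rearranged antibody transcripts was not tested, so these shares are shares of counts.

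The IgM share was 33.1% on average in KO and 89.1% in controls, and the difference of -55.9 percentage points passed a two-sided exact permutation test over 210 splits of the livers (p of 0.0333, 0.0444 adjusted over 4 shares). The IgG share differed by 58.9 percentage points (63.4% and 4.47% on average, exact permutation p of 0.0333, adjusted 0.0444). Without KO 1 these differences were -77.2 and 79.8 percentage points (exact permutation p of 0.0119 for each). This is the smallest p the test can give once KO 1 is left out. KO 1 was singled out after its shares had been seen, so this p is no added support. Without KO 2, KO 3 or KO 4 both tests missed the threshold (exact permutation p of 0.0833 each). The IgA share did not pass (2.85% in KO and 2.76% in controls, exact permutation p of 0.957), nor did it without KO 1 (difference of 0.860 percentage points, exact permutation p of 0.560). It was 2.32%, 6.50% and 2.02% in KO 2, 3 and 4, 0.564% in KO 1 and 1.17% to 4.93% in controls.

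Ighg2c was the main IgG gene in KO 2, 3 and 4. It took 58.5%, 49.8% and 63.4% of IgG counts there, Ighg2b 27.2%, 26.7% and 25.9%, Ighg1 12.1%, 21.4% and 7.6%, and Ighg3 2.17%, 2.03% and 3.11%. KO 3 held the largest part of IgG1 and of IgA among them. Per kilobase of annotated exon, which allows genes to be compared, Ighg2c led the heavy constant genes in all 3 livers, with 283, 164 and 154 CPM per kb. Controls had 8 to 74 IgG counts and KO 1 had 17, too few for such shares to be read closely.

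**Figure D3:**
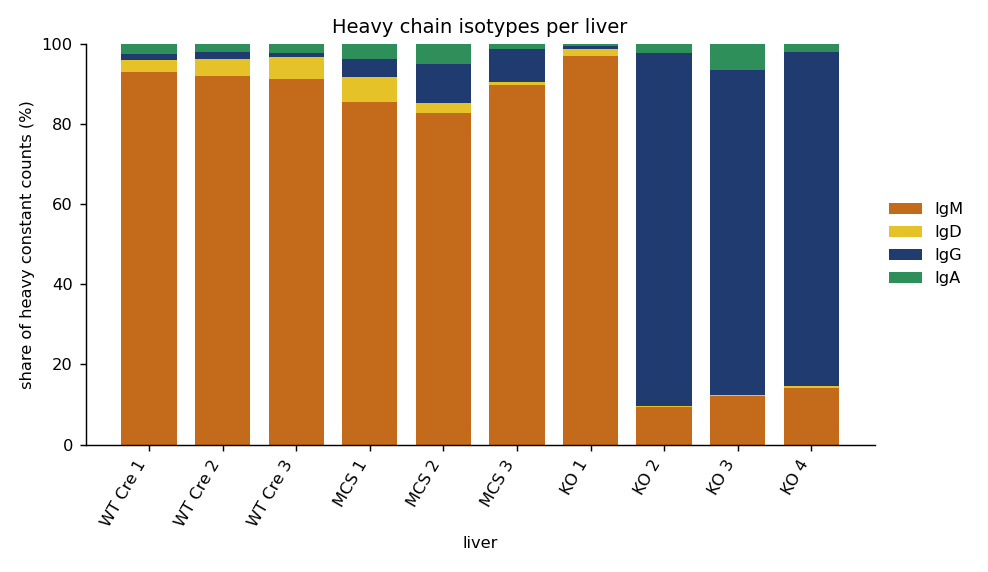
Stacked bars of the share of heavy constant counts taken by IgM, IgD, IgG and IgA in each liver, in percent. IgG takes 81.2% to 88.1% in KO 2, 3 and 4, and IgM takes 82.8% or more in every other liver.

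Light chains were mostly kappa in all livers. Igkc, the kappa constant gene, had 100, 135 and 65 counts in the WT Cre controls, 124, 122 and 44 in the MCS controls, 60 in KO 1, and 8708, 6297 and 4178 in KO 2, 3 and 4. KO 1 was inside the control range, at 3.91 CPM against 2.46 to 5.85 CPM, and the other KO livers were far above it. This gave a log2FC of 5.50 (SE 0.932, adjusted p by edgeR of 0.00211), or 5.91 once KO 1 was left out (adjusted p of 2.13e-06). Per kilobase, Igkc stood at 0.253 to 0.695 times Ighm in controls, at 0.103 times in KO 1 and at 18.1, 14.6 and 10.4 times in KO 2, 3 and 4. KO 1 thus had the most Ighm and the least Igkc for it.

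The lambda constant genes rose as well, with smaller fitted changes. Iglc1 had 1, 11, 7, 4, 5 and 1 counts in the controls, 4 in KO 1, and 86, 46 and 59 in KO 2, 3 and 4 (log2FC of 3.22, SE 0.607, adjusted p by edgeR of 0.00168). Iglc2 had 9 to 25 counts in controls, 8 in KO 1, and 103, 85 and 77 in KO 2, 3 and 4 (2.11, SE 0.443, adjusted p of 0.00295). Iglc3 had 1 to 13 counts in controls, 3 in KO 1, and 61, 26 and 37 in KO 2, 3 and 4 (2.10, SE 0.531, adjusted p of 0.00855). In all 3 genes KO 2, 3 and 4 were above all controls and KO 1 was not. Without KO 1 the log2FC was 3.56, 2.43 and 2.41 (adjusted p of 2.11e-05, 1.76e-05 and 0.00033). Against the WT Cre controls alone Iglc3 did not pass (1.70, adjusted p of 0.0594).

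As a share of light chain constant counts, lambda took 18.7%, 26.6% and 29.3% in the WT Cre controls, 12.7%, 17.0% and 29.0% in the MCS controls and 20% (95% Wilson interval 12.5 to 30.4) in KO 1. It took 2.79%, 2.43% and 3.98% in KO 2, 3 and 4, below all controls. The mean was 7.30% in KO and 22.2% in controls, a difference of -14.9 percentage points (two-sided exact permutation p of 0.0333, adjusted 0.0444). Without KO 1 the difference was -19.2 percentage points (exact permutation p of 0.0119). That p is again the smallest possible without KO 1 and is no added support. The test missed the threshold without WT Cre control 2, WT Cre control 3 or MCS control 3 (exact permutation p of 0.0556 each) and without KO 2, KO 3 or KO 4 (0.0595 each). Read from V genes instead, the lambda share was 2.86%, 1.97% and 2.47% in KO 2, 3 and 4, 4.44% in KO 1 and 4.90% to 25.9% in controls, on 45 to 111 light V counts in each control and KO 1.

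Jchain and Mzb1, which serve antibody assembly, were also higher. Jchain had 19, 14 and 22 counts in the WT Cre controls, 42, 41 and 23 in the MCS controls, 11 in KO 1, and 1677, 1344 and 1089 in KO 2, 3 and 4. KO 1 had the fewest counts of all, and at 0.717 CPM it was inside the control range of 0.607 to 1.83 CPM. In the fit the log2FC was 5.13 (SE 0.901, adjusted p by edgeR of 0.00247), or 5.54 once KO 1 was left out (adjusted p of 5.08e-07). Mzb1 had 1 to 10 counts in controls, 1 in KO 1, and 93, 60 and 82 in KO 2, 3 and 4. The fitted log2FC was 3.46 (SE 0.729, adjusted p by edgeR of 0.00398), or 3.84 once KO 1 was left out (adjusted p of 7.91e-06).

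The V segment is the part of each chain that varies most between B cells. Heavy V genes held 26 to 52 counts in each control, 19 in KO 1, and 4995, 3690 and 3141 in KO 2, 3 and 4. Kappa V genes held 43 to 102 counts in each control, 43 in KO 1, and 7342, 5712 and 4309 in KO 2, 3 and 4. The ratio of kappa V to Igkc counts was alike everywhere, at 0.582 to 0.977 in controls, 0.717 in KO 1 and 0.843, 0.907 and 1.03 in KO 2, 3 and 4. The ratio of heavy V to heavy constant counts was not, at 0.0302 to 0.0692 in controls, 0.00894 in KO 1 and 0.272, 0.289 and 0.311 in KO 2, 3 and 4. The heavy constant counts of controls and of KO 1, mostly Ighm, were thus accompanied by few heavy V counts, and those of KO 1 by the fewest. These ratios are not corrected for length and are read only between livers.

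Nearly all V counts fell on segments annotated as genes. Of 218 V segments annotated as genes, 190 had a count and 144 reached 10, with 30442 counts in all. Of 130 annotated as pseudogenes, 17 had a count and 0 reached 10, with 27 counts in all.

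V gene breadth was wide in KO 2, 3 and 4. With at least 3 counts as the limit, 18, 23 and 9 V genes were detected in the WT Cre controls, 15, 11 and 12 in the MCS controls, 5 in KO 1, and 135, 123 and 113 in KO 2, 3 and 4. With at least 1 count it was 45 to 73 in controls, 47 in KO 1, and 175, 150 and 149 in KO 2, 3 and 4. These numbers follow the V counts, which were 87 to 163 in controls and 64 in KO 1 against 12553, 9517 and 7559. Thinned to 64 V counts in every liver, the expected number of V genes was 34.1 to 44.7 in controls, 47.0 in KO 1, and 32.1, 31.6 and 32.7 in KO 2, 3 and 4. At equal numbers of V counts the order therefore turned, and KO 2, 3 and 4 showed fewer V genes than any other liver. Thinned to 7559 V counts, KO 2, 3 and 4 showed 161, 146 and 149 V genes. No test was run on these scores.

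**Figure D4:**
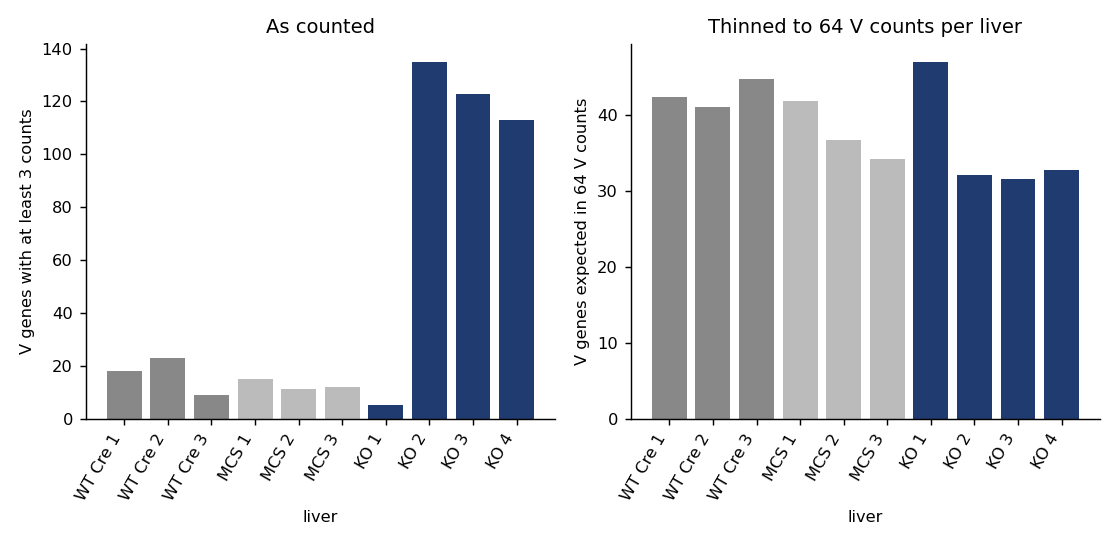
Bars of the number of V genes with at least 3 counts in each liver (left) and of the number expected in 64 V counts per liver (right), with controls in grey and KO in blue. The left bars reach 113 to 135 in KO 2, 3 and 4 and at most 23 elsewhere, whereas the right bars are lowest in KO 2, 3 and 4, at 31.6 to 32.7.

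A few V genes took much of the counts in KO 2, 3 and 4. Ighv8-8 had 0 or 1 counts in every control and 0 in KO 1, but stood at 64.2, 34.9 and 16.1 CPM in KO 2, 3 and 4, which is 32.5% (95% Wilson interval 31.2 to 33.8), 22.5% (21.1 to 23.8) and 13.4% of their heavy V counts. Ighv1-80, whose sequence differs from that of Ighv1-82 at the capitals shown above, had 1 count over all controls, 1 in KO 1, and 296, 535 and 424 in KO 2, 3 and 4. It led the heavy V genes of KO 4, and Ighv8-8 led those of KO 2 and KO 3. Ighv1-82 had 0 to 2 counts in controls, 1 in KO 1, and 129, 388 and 334 in KO 2, 3 and 4. The ratio of the 2 near copies was thus not fixed across livers. These 3 genes reached 10 counts only through the KO livers, so no test of them is given. The 5 leading heavy V genes of each liver together took 54.1%, 60.8% and 53.2% of heavy V counts in KO 2, 3 and 4.

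Kappa V genes were led by Igkv10-96 and Igkv1-110. Igkv10-96 had 1 to 5 counts in controls, 2 in KO 1, and 1210, 1361 and 1271 in KO 2, 3 and 4, that is 16.5%, 23.8% and 29.5% of their kappa V counts. Its nearest gene, Igkv10-94, had 45, 13 and 59 counts in these livers. Igkv1-110 had 0 to 5 counts in controls, 3 in KO 1, and 1413, 555 and 134 in KO 2, 3 and 4, that is 19.2%, 9.72% and 3.11%. It was the first kappa V gene in KO 2, and Igkv10-96 was the first in KO 3 and KO 4. The log2FC was 8.30 for Igkv10-96 (SE 1.25, adjusted p by edgeR of 0.00112) and 7.53 for Igkv1-110 (SE 1.34, adjusted p of 0.00269). Without KO 1 it was 8.71 and 7.94 (adjusted p of 7.91e-11 and 0.000197). On so few control counts the size of these fold changes is uncertain. Igkv19-93 had 0 to 5 counts in controls, 0 in KO 1, and 385, 451 and 308 in KO 2, 3 and 4. Igkv8-28, which had 0 counts in all controls and in KO 1, had 268, 112 and 128. Both reached 10 counts only through the KO livers and are given without a test. In controls and KO 1 other kappa V genes came first, on few counts. Igkv5-39, first in WT Cre control 1 and MCS control 1, had 3 to 15 counts in controls, 2 in KO 1, and 47, 140 and 38 in KO 2, 3 and 4 (log2FC of 2.61, SE 0.703, adjusted p by edgeR of 0.0147). Without KO 1 it was 2.97 (adjusted p of 0.000634), and Igkv5-39 lost the call without KO 3 (1.63, adjusted p of 0.0508), against the MCS controls alone (2.38, adjusted p of 0.0770) and with the replicate number as a block (2.45, adjusted p of 0.102). Igkv2-137, first in MCS control 2, had 1 to 16 counts in controls, 1 in KO 1, and 18, 12 and 10 in KO 2, 3 and 4, and did not pass (1.23, SE 0.730, adjusted p of 0.216), nor without KO 1 (1.51, adjusted p of 0.105), but it did without MCS control 2 (2.39, adjusted p of 0.00856).

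**Figure D5:**
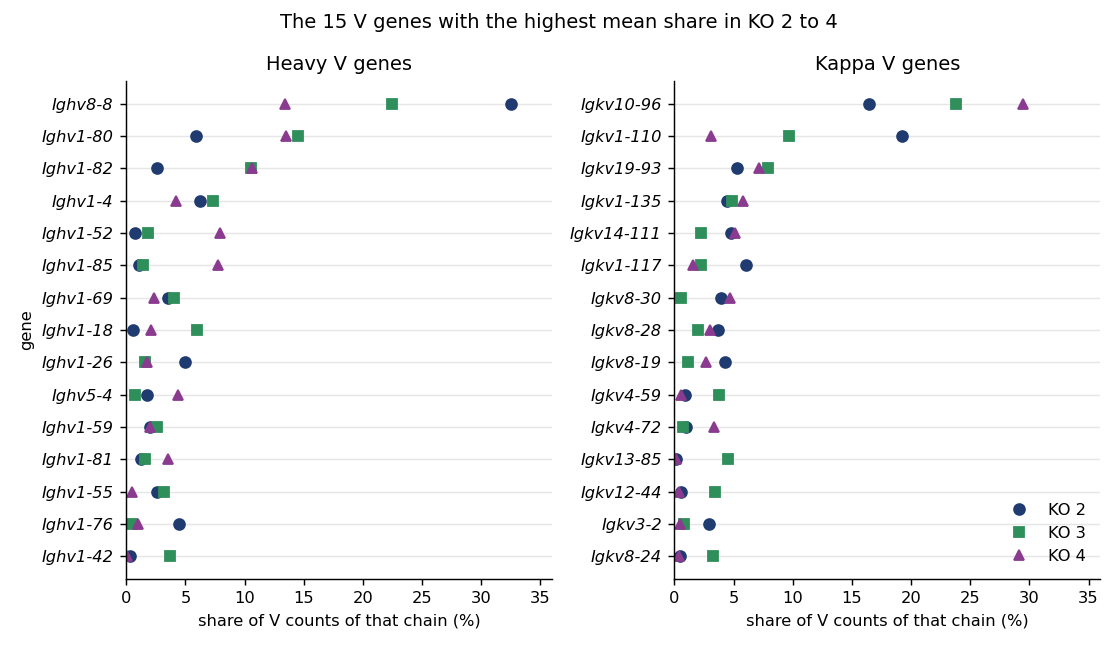
Share of heavy V counts (left) and of kappa V counts (right), in percent, of the 15 V genes with the highest mean share in KO 2, 3 and 4, with 1 symbol per liver. Ighv8-8 runs from 13.4% to 32.5% and Igkv10-96 from 16.5% to 29.5%, whereas lower genes such as Igkv13-85 are common in 1 liver only.

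The leading V genes were partly shared between the 3 livers. The genes named next were chosen after their values were seen. In the heavy chain, 5 genes were among the first 10 in each of KO 2, 3 and 4 (Ighv1-4, Ighv1-69, Ighv1-80, Ighv1-82 and Ighv8-8), and in the kappa chain 4 were (Igkv1-110, Igkv1-135, Igkv10-96 and Igkv19-93). Over 67 heavy V genes, Pearson's r of the shares between 2 of these livers was 0.63 to 0.83 and Spearman's rho 0.35 to 0.53. Over 70 kappa V genes, r was 0.70 to 0.88 and rho 0.32 to 0.45. The points share the same annotation and mapping, and the few leading genes weigh most in r. Other V genes were frequent in 1 liver only. Igkv13-85 had 8, 257 and 4 counts in KO 2, 3 and 4, Ighv1-42 had 14, 137 and 3, and Ighv1-76 had 223, 18 and 31. By family, Ighv1 genes took 52.3%, 66.1% and 70.3% of heavy V counts in KO 2, 3 and 4, and 34.6% to 73.1% in controls, so that the ranges overlap.

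Ighv1-56 was the single gene that fell. It had 10, 10 and 4 counts in the WT Cre controls, 9, 14 and 12 in the MCS controls, and 4, 2, 0 and 1 in KO 1 to 4. KO 2, 3 and 4 were below all controls in CPM, and KO 1, at 0.261 CPM, was above WT Cre control 3. This gave a log2FC of -2.38 (SE 0.638, adjusted p by edgeR of 0.0108), or -3.29 once KO 1 was left out (adjusted p of 0.00172). Against the WT Cre controls alone it did not pass (-2.0, adjusted p of 0.0539). In controls it was the first heavy V gene, with 15.4% to 29.3% of heavy V counts, whereas in KO 2, 3 and 4 it did not exceed 2 counts.

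Among lambda V genes, Iglv1 had 1 to 6 counts in controls, 1 in KO 1, and 185, 103 and 86 in KO 2, 3 and 4. In the fit the log2FC was 4.59 (SE 0.785, adjusted p by edgeR of 0.00131), or 4.98 once KO 1 was left out (adjusted p of 2.64e-07). Iglv3 had 0 to 2 counts in controls, 1 in KO 1, and 27, 12 and 21 in KO 2, 3 and 4, and it reached 10 counts only through the KO livers. Iglv2 had 5, 2 and 3 counts in the WT Cre controls, 1, 0 and 13 in the MCS controls, and 0, 4, 0 and 2 in KO 1 to 4. Iglv2 did not pass (log2FC of -1.40, SE 1.06, adjusted p by edgeR of 0.332), nor did it without KO 1 (-1.13, adjusted p of 0.459), and its spread came mostly from MCS control 3.

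The kappa J segments are printed because they differ in the codons that form the core of the J region. In the lines that follow (GENCODE M21, mm10, plus strand of chromosome 6 between 70722562 and 70723923, 5′ to 3′), capitals mark the letters TTCGG, searched on the coding strand. These were found in 4 of 5 kappa J segments, in 4 of 5 lambda J segments and in 0 of 4 heavy J segments, and Igkj3 did not hold them.
Igkj1: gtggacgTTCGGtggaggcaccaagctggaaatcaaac
Igkj2: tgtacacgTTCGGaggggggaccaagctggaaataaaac
Igkj3: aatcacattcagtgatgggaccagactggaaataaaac
Igkj4: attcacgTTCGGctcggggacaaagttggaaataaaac
Igkj5: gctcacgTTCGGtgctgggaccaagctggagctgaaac

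J segments are short and held few counts. All heavy J segments together had 0 to 2 counts in each control, 0 in KO 1, and 73, 26 and 41 in KO 2, 3 and 4, and all kappa J segments had 1 to 6, 0, and 67, 50 and 46. KO 2, 3 and 4 were above all controls in CPM for all 9 J segments, where 20.1% of all genes were. These segments reached 10 counts only through the KO livers, so this follows largely from the rule. Igkj5 held the most kappa J counts in KO 2 and 3, with 22 and 17 counts, and Igkj2 in KO 4, with 13. Igkj3 had 12, 8 and 6 counts. Of the 20 D segments, 2 had a count and none reached 10.

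The kinds of control were then compared with KO and with each other. Against the WT Cre controls, which share the virus and Cre with KO, 93 of the 166 genes were higher, where 10.6% of all genes tested were. Against the MCS controls, which share the genotype, 86 were higher, where 11.9% of all genes were. Without KO 1, a setting added after the data had been seen, the counts were 112 and 117, where 12.6% and 13.8% of all genes were higher. These comparisons share the KO livers. Only 32 of the 166 genes reached 10 counts in the 6 controls alone, so these counts too are no measure of how many genes responded. When the kinds of control were set against each other, 0 of the 166 genes passed with edgeR, where 0.641% of all genes did. 1 gene had an unadjusted p under 0.05, lower in the WT Cre controls, and DESeq2 also passed 0, with no adjusted p for 89 genes. The IgG share was 1.32% ± 0.358 (SD, n = 3) in the WT Cre and 7.61% ± 2.68 (SD, n = 3) in the MCS controls. The WT Cre values did not overlap the MCS values, and this difference was not tested.

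Genes that mark cell types were examined beside the immunoglobulin genes, by counts at an adjusted p under 0.05 alone, where 19.7% of all genes were higher and 16.6% lower. Without KO 1, a setting added after the data had been seen, 22% of all genes were higher and 18.9% lower. Of 15 plasma cell genes tested, 9 were higher and 1 was lower, with KO 1 and without it, with a median log2FC of 0.80 against -0.0030 over all genes. Irf4, a transcription factor of plasma cell formation, ran from 0.0559 to 0.397 CPM in controls (median 0.268) and stood at 0.456, 3.60, 2.57 and 3.52 CPM in KO 1 to 4 (log2FC of 3.33, SE 0.502, adjusted p by edgeR of 0.000337). Prdm1, which encodes the plasma cell regulator BLIMP1, ran from 0.163 to 0.782 CPM and stood at 0.847, 3.04, 1.77 and 2.41 CPM (2.29, SE 0.399, adjusted p of 0.000731). Pou2af1, a coactivator in B cells, ran from 0 to 0.564 CPM and stood at 0.391, 4.82, 3.62 and 5.58 CPM (3.25, SE 0.632, adjusted p of 0.00252). In all 3 genes KO 2, 3 and 4 were above all controls, and KO 1 was just above the highest control for Irf4 and Prdm1 and inside the control range for Pou2af1. Without KO 1 the log2FC was 3.65, 2.53 and 3.60 (adjusted p of 2.09e-06, 8.9e-05 and 1.67e-05). The other 6 genes that rose were above all controls in KO 1 too. Sdc1, the plasma cell surface marker CD138 that hepatocytes also carry, ran from 209 to 302 CPM in controls and stood at 423, 347, 416 and 604 CPM in KO 1 to 4 (0.80, SE 0.162, adjusted p of 0.002). Derl3, a gene of endoplasmic reticulum protein disposal, ran from 0.804 to 3.29 CPM and stood at 7.10, 6.84, 6.07 and 4.21 CPM, with KO 1 the highest. Fkbp11 stood at 17.7 CPM in KO 1 against at most 8.89 CPM in controls, Slamf7 at 1.43 against 0.781, Tnfrsf13b at 0.651 against 0.333 and Txndc5 at 233 against 207. Xbp1, which hepatocytes also express, did not pass (0.07, adjusted p of 0.861), nor did Eaf2, Ell2, Sec11c and Creld2. Edem2 was the gene that fell (-0.36, adjusted p of 0.0114). Txndc5, Ell2, Edem2, Creld2 and Sec11c were already abundant in controls, at 188, 86.5, 61.2, 44.2 and 25.9 CPM on average. The summed level of the list, to which Sdc1 and Xbp1 gave the most, was 832 to 1062 CPM in controls and 1057 to 1457 CPM in KO. Tnfrsf17, the plasma cell receptor BCMA, did not reach 10 counts.

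Of 16 B cell genes tested, 8 were higher and 0 lower (9 and 0 without KO 1), with a median log2FC of 1.12. Cd22, a B cell receptor inhibitor, ran from 0.279 to 1.99 CPM in controls and stood at 2.22, 4.15, 3.45 and 4.36 CPM in KO 1 to 4 (1.49, SE 0.365, adjusted p by edgeR of 0.00676). Cd79b, a signalling chain of the B cell receptor, ran from 0.112 to 1.65 CPM and stood at 1.11, 3.40, 2.65 and 2.64 CPM (1.35, SE 0.452, adjusted p of 0.0347). Cd37, Bank1, Fcrla, Cxcr5 and Spib also rose (1.08 to 1.69). Ms4a1, which encodes the B cell surface protein CD20, did not pass (1.17, adjusted p by edgeR of 0.0848). Cd79a, which encodes the partner chain of Cd79b, did not pass either (0.93, adjusted p of 0.130). Cd72, which is also found on macrophages, ran from 1.65 to 2.86 CPM and stood at 5.60, 10.1, 10.3 and 9.56 CPM (1.99, SE 0.199, adjusted p of 1.49e-05). With KO 1 left out, the log2FC was 1.65 for Cd22, 1.57 for Cd79b and 2.15 for Cd72, and Ms4a1 still did not pass (1.33, adjusted p of 0.0624). The list summed to 7.66 to 19.1 CPM in controls and to 22.0 CPM in KO 1 and 35.6 to 41.7 CPM in KO 2, 3 and 4. Genes of other immune cells were higher too, and both lists summed above all controls in KO 1 as well. All 10 T cell genes were higher (summed 4.25 to 6.06 CPM in controls, 7.23 CPM in KO 1 and 18.4 to 30.6 CPM in KO 2, 3 and 4). All 10 macrophage genes were higher too (221 to 416, 514, and 754 to 1081 CPM). Of 10 hepatocyte genes 0 were higher and 8 lower. Without KO 1 the counts were 10, 10 and 0 higher, and 7 hepatocyte genes were lower. The part of these cell types in the immunoglobulin result was not tested.

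Genes that carry or bind antibodies changed in both directions. Of 10 genes of immunoglobulin transport and Fc receptors, 5 were higher and 2 lower at an adjusted p under 0.05 alone, with KO 1 and without it. By that threshold 19.7% of all genes were higher and 16.6% lower, and 22% and 18.9% without KO 1. Among the 5, Fcgr2b rose by a log2FC of 0.33 only (adjusted p by edgeR of 0.0483). Pigr, the receptor that carries IgA and IgM across epithelia, ran from 1097 to 1721 CPM in controls (median 1544) and stood at 656, 722, 437 and 399 CPM in KO 1 to 4 (log2FC of -1.44, SE 0.195, adjusted p by edgeR of 0.000116). Fcgrt, which encodes the neonatal Fc receptor that spares IgG from breakdown, ran from 169 to 188 CPM and stood at 89.8, 63.7, 64.5 and 67.3 CPM (-1.33, SE 0.114, adjusted p of 4.36e-06). Both were below all controls in every KO liver, KO 1 included. Fcgr1, the high-affinity IgG receptor of macrophages, ran from 1.59 to 3.74 CPM and stood at 5.15, 7.71, 8.22 and 11.7 CPM (1.77, SE 0.250, adjusted p of 0.000161). Without KO 1 the log2FC was -1.53 for Pigr, -1.46 for Fcgrt and 1.94 for Fcgr1 (adjusted p of 0.000109, 1.37e-07 and 2.56e-05).

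Of 12 genes for the survival, homing and switching of B cells and plasma cells, 6 were higher and 1 lower at an adjusted p under 0.05 alone. By that threshold 19.7% of all genes were higher and 16.6% lower. Tnfsf13, which encodes the plasma cell survival factor APRIL, ran from 0.0867 to 0.503 CPM in controls and stood at 0.586, 1.86, 3.45 and 2.37 CPM in KO 1 to 4 (log2FC of 2.75, SE 0.455, adjusted p by edgeR of 0.000563). Cxcr4, a homing receptor of plasma cells and other leukocytes, ran from 0.792 to 1.30 CPM and stood at 0.977, 6.09, 4.34 and 7.42 CPM (2.11, SE 0.393, adjusted p of 0.00147). KO 1 was inside the control range for Cxcr4 and just above it for Tnfsf13. Leaving out KO 1 gave a log2FC of 3.03 for Tnfsf13 and 2.43 for Cxcr4 (adjusted p of 2.11e-05 and 1.48e-06). Ccl28, a chemokine for IgA plasma cells, was lower (-2.31, adjusted p of 0.0348), and did not pass without KO 1 (-2.05, adjusted p of 0.0606). It stood at 0.667, 0.781 and 0.516 CPM in the WT Cre controls, but at 0.244, 0.0893 and 0.0559 CPM in the MCS controls, which overlap the 0, 0.158, 0.0843 and 0.0382 CPM of KO 1 to 4. Without KO 1, 7 genes of this list were higher and 0 lower, where 22% of all genes were higher and 18.9% lower.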

How the data were processed

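Poly(A) RNA from 10 livers had been sequenced from directional libraries. The authors aligned reads with STAR to mm10 and deposited raw counts per gene as whole numbers without normalization, and an FPKM table that was not used here. Their methods name HOMER for counting, and the submitters' processing notes name HTSeq and Cufflinks. How strand and multi-mapped reads were handled is not given in the sources used here. Each KO column was matched by its number, and control columns 1 to 3 and 4 to 6 to the WT Cre and MCS libraries by library number. All 10 columns were mapped.

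All genes whose counts over the 10 livers reached 10 went into the two-sided quasi-likelihood test of edgeR 4.0.16 (R 4.3.3, TMM, robust, no covariates), adjusted by Benjamini-Hochberg over all genes tested. Calls needed an adjusted p under 0.05 together with a log2 fold change beyond 1 in size. Genes of the cell type and pathway lists were counted at an adjusted p under 0.05 alone. SE is the log2 fold change over the square root of F. The script was tested on simulated data. Alternatives were scaling by library size, DESeq2 1.42.0, other filters, a replicate block, single livers left out and each kind of control alone. Shares per liver were compared by exact permutation (scipy 1.17.1), and V gene numbers were thinned analytically. Wilson intervals treat each read as a separate molecule and leave out the spread between livers. Reads copied by PCR are not separate molecules, so the intervals may understate even the counting error. p-values measure the spread between these livers. Same-numbered livers did not deviate together (correlations -0.039 to 0.11 over 9 pairs, 1 of them over 0.1).

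The genes named were all constant genes, Jchain, Mzb1, the 3 V genes of highest mean CPM per chain, the first V gene of each liver and the 3 largest changes in each direction. Other lists held plasma cell, B cell, T cell, macrophage and hepatocyte markers, immunoglobulin transport and Fc receptors, and B cell and plasma cell survival, homing and switching. The genes and lists were chosen with earlier results of these data known. Single values of some listed genes are not reported here.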

Additional observations from a re-analysis of the deposited data

Results flagged for a closer look

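In each group of 4 to 6 livers, the gap of the highest or lowest liver to its neighbour was compared with Dixon's critical value. Of 71 groups examined 11 passed, 7 of them through KO 1, and chance alone marks about 1 group in 20, that is 5%. For KO 1 these were Ighm, at 134 CPM against 54.7 to 67.3 CPM in the other KO livers, and Igkv10-96, at 0.130 CPM against 47.8 to 57.3 CPM. The others were its IgM share of 97.1%, its IgG share of 0.80%, its lambda share of 20%, its 5 V genes with at least 3 counts and its 47.0 V genes expected in 64 V counts. Ighm was thus high in the liver whose other immunoglobulin transcripts stayed at the level of the controls, and the cause was not tested.

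Among the controls, MCS control 3 had 0.0559 CPM of Ighv1-80 (1 count, with 0 in the others) and 0.726 CPM of Iglv2. WT Cre control 2 had 0.217 CPM of Igkv19-93 (5 counts), and MCS control 2 had 0.714 CPM of Igkv2-137 (16 counts against 1 to 3 in the other controls).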

How the results depend on the processing

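With any 1 liver left out the summed immunoglobulin level stayed higher in KO, and the number of calls depended on KO 1 and on the filter. Calls over all 166 members do not measure how stable the result was, since only 32 reached 10 counts in the controls alone. Those 32 were not recounted under the alternatives. The number of members higher in KO was 114 to 138 with 1 liver left out, the highest without KO 1, where 11.2% to 14% of all genes were higher, and 121 with DESeq2 (12.4% of all genes). With filterByExpr only 12 members were tested, of which 10 were higher and 0 lower (12.9% of all genes higher). The member that was lower was not called against the WT Cre controls only, where the count was 0. The replicate block gave 137 higher and 1 lower (10.7% of all genes higher). Its numbers do not pair the livers, and with the block the log2FC was 3.57 for Igha (adjusted p of 0.0667) and 2.45 for Igkv5-39 (adjusted p of 0.102). The total ratio of KO to controls was 18.0 and ran from 14.0 to 23.2 with 1 liver left out. It rose to 44.3 without the member with most counts in each liver and to 54.1 without Ighm. With 1 liver left out, the difference in IgM share ran from -77.2 to -48.0 percentage points, that in IgG share from 50.7 to 79.8, that in lambda share from -19.2 to -13.3 and that in IgA share from -1.12 to 0.860. The lambda difference missed the threshold without WT Cre control 2, WT Cre control 3 or MCS control 3 (exact permutation p of 0.0556 each) and without KO 2, KO 3 or KO 4 (0.0595 each). The IgA difference was -0.0883 per kilobase. The number of V genes differed by 79.3 on average and by -4.27 after thinning to equal V counts. Ighd reversed to -0.18 against the WT Cre controls and ran from -6.04e-05 (without MCS control 3) to 0.37 with 1 liver left out. Over the repeats for the named genes, 460 kept the direction and the side of the adjusted p threshold, whatever the fold, so Ighm without KO 1 (0.71) is among them. In 13 the adjusted p was no longer under 0.05, 6 of them for Igkv8-28, in 1 it came under it, and 2 reversed. Some named genes, such as Ighv8-8 and Igkv8-28, reached 10 counts only through the KO livers, so the 460 do not measure how stable the calls were. The depth of controls and KO 1, at 64 to 163 V counts, limits all V gene shares there.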
